A study of Mus musculus with 15 samples.

Results

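The genes described here carry the interferon signal from the cell surface to DNA: the type I receptor chains Ifnar1 and Ifnar2, the kinase Jak1, the transcription factors Stat2 and Stat3, and the interferon regulatory factors Irf1, Irf3, Irf7 and Irf9. They were chosen by symbol with earlier results of these data known, as were the gene lists further below. Shares called among them are therefore no independent test. All 9 genes were found among the 54343 gene entries of the MC38 table and the 55303 of the B16-F10 table. Messenger RNA was sequenced from 2 mouse tumour lines in which the gene Ssbp4, which codes for a single-stranded DNA binding protein, had been altered in opposite directions. MC38, a colon adenocarcinoma line, was compared as wild-type cells (4 libraries) and as cells overexpressing Ssbp4 from an integrated retroviral vector, pMSCV-IRES-EGFP (3 libraries). B16-F10, a melanoma line, was compared as wild-type cells that had received Cas9 with a control guide to an intergenic region (4 libraries) and as cells edited with a pool of Ssbp4 guides (4 libraries). For MC38 the tissue label reads melanoma and the table's columns read colon. The labels name no MC38 group with an empty vector, so carrying the vector and overexpressing Ssbp4 cannot be told apart. The knockout cells are not stated to be a clone. Whether libraries of 1 group stem from separate cultures is not labelled. Each p-value therefore rests on the spread between libraries, and that spread may be technical.

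Type I interferons bind a receptor made of the IFNAR1 and IFNAR2 chains, which activates the kinases TYK2 and JAK1. These phosphorylate STAT proteins, among them STAT2, which joins IRF9 in ISGF3, a complex that binds the interferon-stimulated response element (ISRE) of many antiviral genes. IRF3 and IRF7 act upstream and switch on the interferon genes themselves, IRF1 acts downstream of interferon gamma, and STAT3 is activated mainly by the interleukin 6 family. IRF7, IRF9 and STAT2 are themselves known as interferon-induced genes.

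The promoters of 4 members are printed because they show which members carry the motif letters of these factors in the stretch nearest their start. For each, the 250 bases before the start are given from RefSeq on build GRCm38.p6, read along the strand of the gene, with matches in capitals. The Stat2 promoter (chr10:128270248-128270497, plus strand) has an ISRE match (GAAA, any 2 bases, GAAA) read on the opposite strand and starting 222 bases before the start. The Irf1 promoter (chr11:53769764-53770013, plus strand) has a match to the gamma-activated site (GAS) letters TTCNNNGAA, starting 90 bases before the start. The Ifnar2 promoter (chr16:91372533-91372782, plus strand) has a GAS match starting 214 bases before the start. The Irf7 promoter (chr7:141266425-141266674, minus strand) has neither.
Stat2: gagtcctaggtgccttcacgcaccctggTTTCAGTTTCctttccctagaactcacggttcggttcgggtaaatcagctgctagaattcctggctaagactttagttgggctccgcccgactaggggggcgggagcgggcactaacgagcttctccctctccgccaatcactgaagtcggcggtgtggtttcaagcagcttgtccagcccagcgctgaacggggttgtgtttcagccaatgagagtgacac
Irf1: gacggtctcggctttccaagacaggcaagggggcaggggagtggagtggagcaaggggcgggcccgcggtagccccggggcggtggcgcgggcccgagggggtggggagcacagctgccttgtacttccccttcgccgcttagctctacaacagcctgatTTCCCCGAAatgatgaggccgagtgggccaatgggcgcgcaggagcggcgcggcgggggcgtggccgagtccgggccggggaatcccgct
Ifnar2: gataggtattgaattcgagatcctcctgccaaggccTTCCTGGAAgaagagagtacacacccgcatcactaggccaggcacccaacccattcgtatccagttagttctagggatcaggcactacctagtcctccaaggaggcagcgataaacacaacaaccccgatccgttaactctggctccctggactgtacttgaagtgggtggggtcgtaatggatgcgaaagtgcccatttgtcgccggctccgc
Irf7: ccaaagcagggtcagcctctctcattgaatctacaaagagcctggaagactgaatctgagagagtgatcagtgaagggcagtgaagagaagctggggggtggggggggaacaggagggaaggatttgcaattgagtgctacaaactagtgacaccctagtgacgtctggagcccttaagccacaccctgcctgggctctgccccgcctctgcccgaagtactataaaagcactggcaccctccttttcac
Both strands were searched in all 11 windows of the 9 members, and no other member had a match. ISRE letters occurred in 2.98% of the 32851 RefSeq promoter windows of this length, and GAS letters in 7.02%. A match is a run of letters and not a shown binding site.

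The level of a gene is given as FPKM, fragments per kilobase of gene, scaled to the mapped fragments of the library, so levels can be ranked between genes within a line. The 2 tables were normalized separately, so levels set side by side across lines carry no test. Changes were tested within each line with limma on log2(FPKM + 1), which understates the change of low genes, with Benjamini-Hochberg adjusted p-values over every gene with a mean of at least 1 FPKM. A gene was called changed at an adjusted p under 0.05.

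Ssbp4 itself rose in MC38 from 16.3 ± 2.05 FPKM (SD, n = 4) to 534 ± 63.5 FPKM (SD, n = 3), a log2 fold change of 4.95 (SE 0.10, limma adjusted p = 1.12e-09). In B16-F10 it fell from 34.5 ± 2.37 (SD, n = 4) to 22.1 ± 2.29 FPKM (SD, n = 4), so that 64.1% of the wild-type mRNA level was left (limma adjusted p = 0.00869). The mRNA level does not measure the edited share of alleles or the protein. Estimated depth was 32520000 to 38440000 fragments a library in MC38 and 32540000 to 48860000 in B16-F10. In MC38, 3 of 4 fibroblast markers were called higher in overexpressing cells (Dcn, Pdgfra and Lum, of which Lum reached the minimum only through the overexpressing libraries), with a summed level of 112 to 121 FPKM in wild-type and 419 to 430 FPKM in overexpressing libraries. The 8 epithelial markers summed to 6.68 to 8.86 FPKM in wild-type and 8.96 to 10.8 FPKM in overexpressing libraries, a sum that rose through Krt8 (3.22 to 9.45 FPKM, limma adjusted p = 2.60e-06). Krt18 fell from 3.23 to 0.0607 FPKM (adjusted p = 1.55e-07). Of the markers under the minimum, Cdh1 was at 0.306 and 0.0333 FPKM, Krt19 at 0.170 and 0.0055 FPKM, and Epcam at 0.846 FPKM in wild-type cells and listed at 0 in every overexpressing library. The 8 leukocyte markers summed to 2.24 to 3.04 and 3.64 to 4.38 FPKM, with 6 of them under 0.05 FPKM in every library. The part of these shifts in the MC38 results was not tested. In B16-F10, all 8 melanocyte markers reached 1 FPKM and summed to 12729 to 16635 FPKM in wild-type and 16322 to 16833 FPKM in knockout libraries.

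In MC38 cells overexpressing Ssbp4, 5 members rose (Irf7, Stat2, Irf9, Stat3 and Irf1), 2 fell (Ifnar2 and Irf3), and Ifnar1 and Jak1 did not pass the test. The largest rises by fold of mean FPKM were 6.25-fold for Irf7, 3.10-fold for Stat2 and 2.61-fold for Irf9. These counts stand against a wide background: 23.9% of the 10748 genes tested in MC38 were called higher and 23.6% were called lower, 47.5% in all. The groups of libraries did not overlap for the same 7 members, as was so for 25.5% of tested genes in the higher direction and 25.1% in the lower one, 50.6% in all. The share of members called lower, 22.2%, was near that background, and the share called higher was 55.6%. Since the members were chosen with earlier results known, these shares are no independent test. In bulk libraries, fewer cells with a transcript and less of it per cell cannot be told apart. The median log2 fold change was 0.42 over the members and -0.01 over all tested genes. Irf7 reached the minimum of 1 FPKM only through the overexpressing libraries, so its place among the tested genes depended on its rise.

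**Figure D1:**
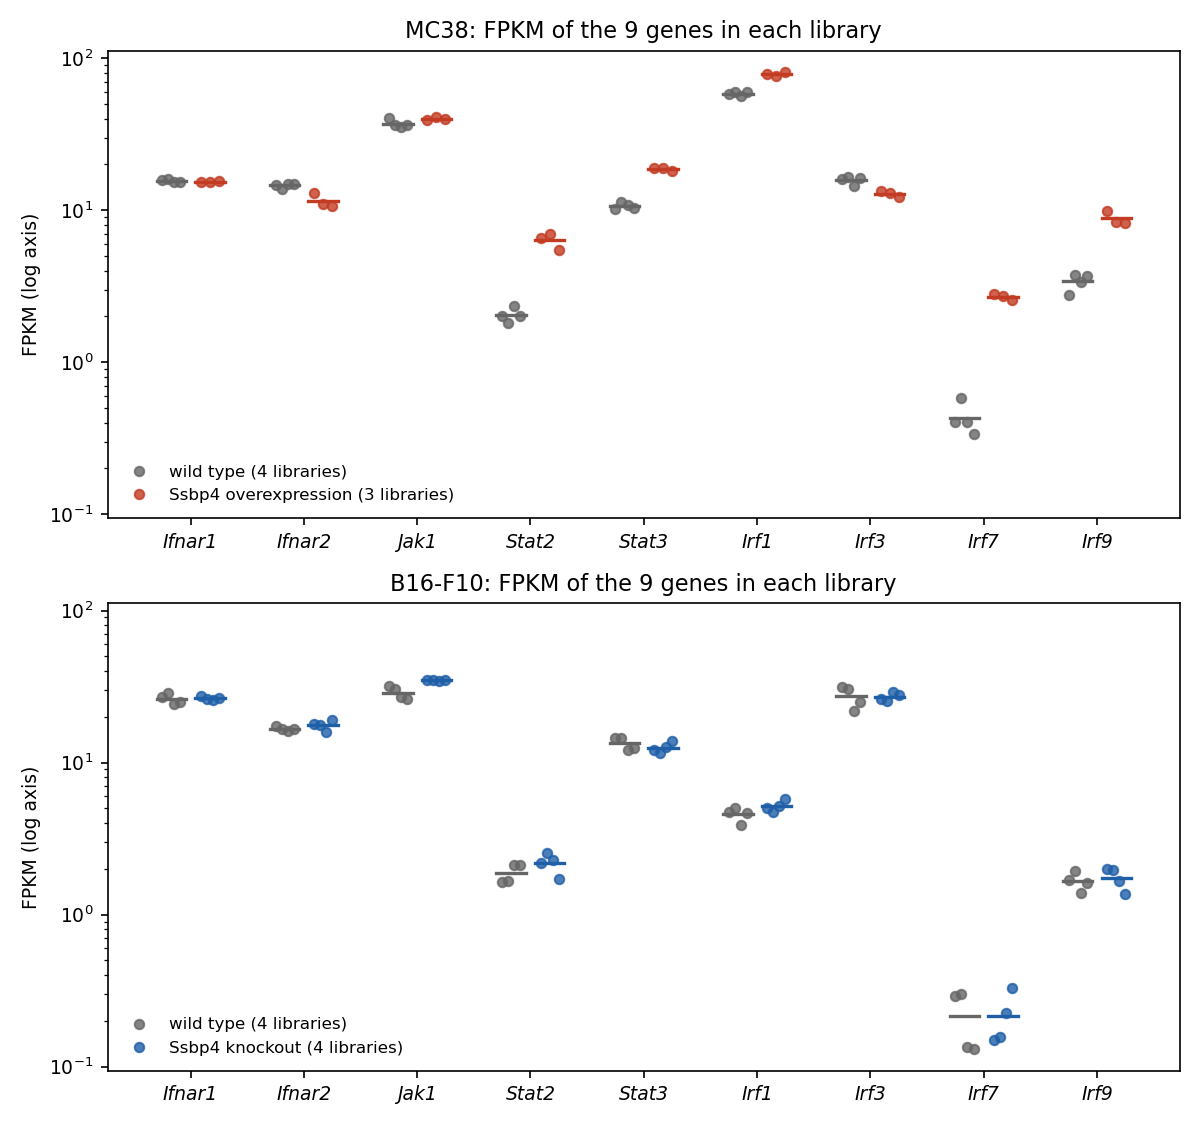
FPKM (log axis) of the 9 members in each library, 1 point a library, with MC38 wild-type and overexpressing cells and B16-F10 wild-type and knockout cells as groups. In MC38 the groups stand apart for Irf7, Stat2, Irf9, Stat3, Irf1, Ifnar2 and Irf3, while in B16-F10 they stand apart for Jak1 only.

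Of the receptor chains, Ifnar2, which holds JAK1 and STAT2 on its intracellular part, stood at 14.7, 13.7, 14.9 and 14.8 FPKM in the wild-type MC38 libraries and at 12.9, 10.9 and 10.7 FPKM in the overexpressing ones. Every overexpressing library lay below every wild-type library. The mean fell to 79.1% of wild type, a log2 fold change of -0.32 (SE 0.06, limma adjusted p = 0.00241). Ifnar1, the chain that holds TYK2, stood at 15.7, 15.98, 15.3 and 15.4 FPKM in wild-type and 15.2, 15.3 and 15.6 FPKM in overexpressing libraries. The groups overlapped, and the difference of -0.02 on the log2 scale had a 95% interval of -0.11 to 0.07 (limma adjusted p = 0.748). Within a library, the ratio of Ifnar2 to Ifnar1 was 0.933 ± 0.0509 (SD, n = 4) in wild-type and 0.748 ± 0.0856 (SD, n = 3) in overexpressing cells. These ratios did not overlap, with a two-sided exact permutation p of 0.0286, the smallest that 4 libraries against 3 allow, and 0.0571 after adjustment over the 6 ratios tested.

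Jak1, the kinase shared by the receptors for both interferon types and by those of the interleukin 6 family, stood at 40.2, 36.6, 35.3 and 36.3 FPKM in wild-type MC38 libraries. It was at 39.0, 41.0 and 39.9 FPKM in overexpressing libraries. Wild-type library 1 lay within the overexpressing range and the other wild-type libraries below it. The log2 difference was 0.11 (SE 0.05, limma adjusted p = 0.0882), and it passed only when that library was left out (0.15, limma adjusted p = 0.0107).

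Stat2, the ISGF3 subunit that contributes the activating domain, was low in wild-type MC38 cells, at 2.01, 1.80, 2.33 and 2.02 FPKM. The overexpressing libraries held 6.58, 6.95 and 5.44 FPKM. The groups were far apart, with a log2 fold change of 1.26 (SE 0.09, limma adjusted p = 2.00e-06). Stat2 is the member whose promoter, printed above, holds the ISRE letters.

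Stat3, the factor activated mainly by interleukin 6 type cytokines, was more abundant than Stat2 in both groups. It stood at 10.2, 11.3, 10.8 and 10.3 FPKM in wild-type and 18.9, 19.0 and 18.2 FPKM in overexpressing libraries, with no overlap. Its mean rose 1.76-fold, a log2 fold change of 0.76 (SE 0.05, limma adjusted p = 9.98e-07). Stat3 overlaps an exon of Stat5a by 72 bases on the opposite strand, and the counting strand is not given. Stat5a rose by 0.26 (limma adjusted p = 0.0101). The ratio of Stat2 to Stat3 went from 0.193 ± 0.0231 (SD, n = 4) to 0.338 ± 0.0345 (SD, n = 3). That ratio did not overlap between groups (two-sided exact permutation p = 0.0286, adjusted p = 0.0571), which misses the threshold after adjustment. Each MC38 ratio had this smallest possible p. With it, the adjusted value could pass only if a B16-F10 ratio reached the same p. The miss therefore says nothing of the size of the change.

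Irf9, the DNA-binding subunit of ISGF3, was at 2.78, 3.74, 3.35 and 3.71 FPKM in wild-type and 9.94, 8.37 and 8.24 FPKM in overexpressing MC38 libraries. All overexpressing libraries were above all wild-type ones, and the log2 fold change was 1.17 (SE 0.09, limma adjusted p = 5.26e-06). Irf9 shares 123 exon bases on the same strand with its neighbour Rnf31, for which the log2 difference was 0.16 (limma adjusted p = 0.0876).

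Irf7, the factor that amplifies type I interferon production, was the lowest member in every group. In MC38 it stood at 0.403, 0.586, 0.403 and 0.336 FPKM in wild-type and 2.82, 2.72 and 2.55 FPKM in overexpressing libraries. The overexpressing libraries were close together and far above the others, with a log2 fold change of 1.37 (SE 0.08, limma adjusted p = 7.00e-07). With a pseudocount of 0.1 in place of 1 it was 2.41, and with every gene tested, whatever its level, Irf7 was still called (limma adjusted p = 5.07e-05). Irf7 shares 45 exon bases with Phrf1 on the opposite strand, and no source used here gives the counting strand. Phrf1 fell from 20.7 to 18.3 FPKM (limma adjusted p = 0.00967).

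Irf3, the constitutive factor that starts type I interferon production, moved the other way from Irf7. It stood at 16.1, 16.5, 14.5 and 16.3 FPKM in wild-type and 13.3, 12.97 and 12.2 FPKM in overexpressing libraries. The groups did not overlap, and Irf3 fell to 80.9% of wild type, a log2 fold change of -0.28 (SE 0.06, limma adjusted p = 0.00208). Irf3 overlaps an exon of Bcl2l12 by 88 bases on the opposite strand. For Bcl2l12 the log2 difference was -0.08 (limma adjusted p = 0.613). The ratio of Irf7 to Irf3 was 0.0272 ± 0.00621 (SD, n = 4) in wild-type and 0.210 ± 0.000913 (SD, n = 3) in overexpressing cells, 7.87-fold apart (two-sided exact permutation p = 0.0286, adjusted p = 0.0571).

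Irf1, which drives antigen-processing and other interferon gamma genes, was the most abundant member in MC38. It stood at 57.7, 59.8, 56.7 and 59.9 FPKM in wild-type and 78.3, 76.1 and 81.1 FPKM in overexpressing libraries, with no overlap. The mean rose 1.34-fold, a log2 fold change of 0.42 (SE 0.04, limma adjusted p = 9.45e-06). Irf1 overlaps an exon of Gm17334 by 100 bases on the opposite strand. For Gm17334 the log2 difference was -0.05 (limma adjusted p = 0.674).

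**Figure D2:**
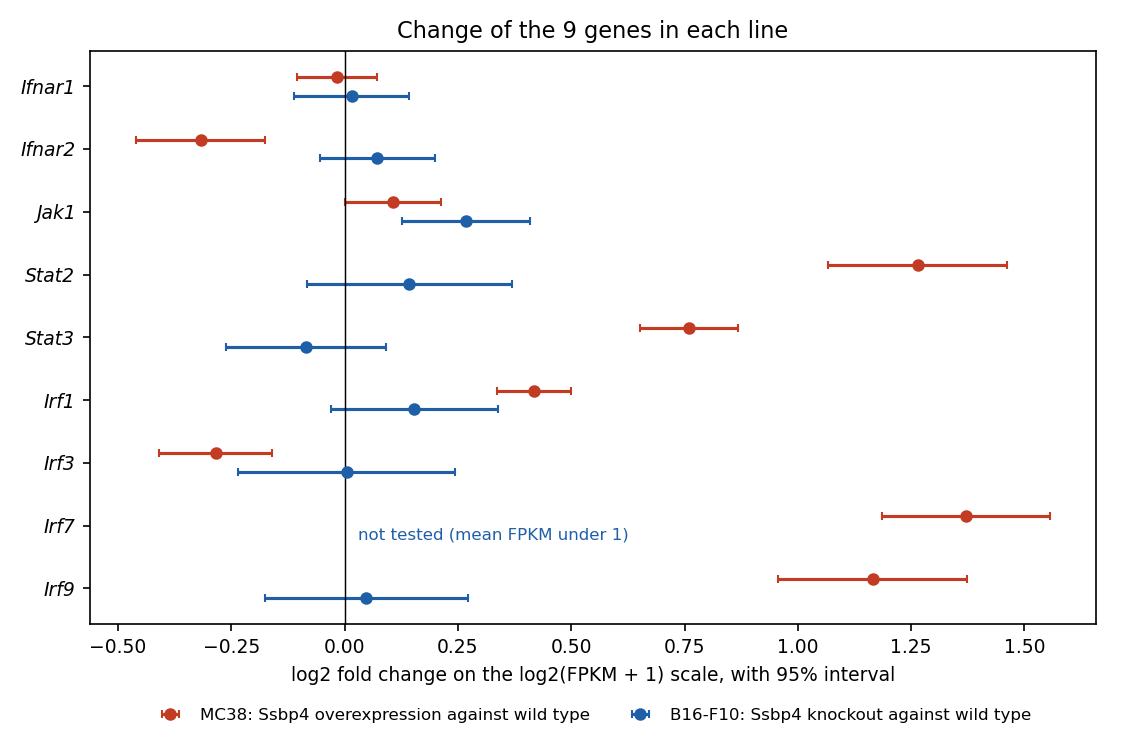
Log2 fold change of each member on the log2(FPKM + 1) scale (horizontal axis) with its 95% interval, altered against wild-type cells of the same line. In MC38, 5 intervals lie above 0 and 2 below it among the called genes, and that of Jak1, not called, also lies above 0. In B16-F10 the interval of Jak1, not called, alone leaves out 0, and Irf7 was under the minimum level.

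In B16-F10 cells edited for Ssbp4, none of the 8 members tested was called by limma, against 1.33% of 10902 tested genes called higher and 0.899% called lower, 2.23% in all. At an unadjusted p under 0.05, 1 member passed, Jak1, as did 2325 of all tested genes. The median log2 difference was 0.06 over the tested members and 0.02 over all genes. A difference that misses the threshold does not show that the levels were alike, so the intervals are given. The wild-type libraries fell into pairs: in libraries 1 and 2, 8 of the 9 members were higher than in both libraries 3 and 4, and Stat2 was lower. The share of all tested genes split this way was not counted, so the 8 of 9 cannot be read as a trait of the members. For Ifnar2 the gap was small, with 16.719 FPKM in library 2 and 16.706 FPKM in library 4. The split was not particular to these genes. All 8 melanocyte markers followed it, summing to 16484 and 16635 FPKM in libraries 1 and 2 and to 12729 and 12766 FPKM in libraries 3 and 4, and knockout libraries lay at 16322 to 16833 FPKM. The chi-square per degree of freedom between libraries was 7.93 to 8.48 within the pairs and 37.7 to 39.4 across them. The part of this split in the B16-F10 results was not tested, but the log2 difference of each tested member is also given with either pair left out, a choice made after seeing the data. Such a fit leaves the spread between the pairs out of its error, so its p-values can be too small. It called 1698 genes higher and 1107 lower with libraries 1 and 2 left out, and 784 and 565 with libraries 3 and 4 left out.

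Jak1 came nearest to a call. It stood at 31.8, 30.4, 27.1 and 26.1 FPKM in wild-type and 34.97, 34.95, 34.2 and 35.1 FPKM in knockout B16-F10 libraries. Every knockout library lay above every wild-type one, which made Jak1 the 1 of 8 tested members without overlap. Of all tested genes, 8.53% lay apart in that direction and 5.32% in the other, 13.9% in all. The means were 28.8 ± 2.68 and 34.8 ± 0.406 FPKM (SD, n = 4 each), a log2 difference of 0.27 (95% interval 0.13 to 0.41, limma adjusted p = 0.0596). With 1 library left out or another setting it ranged from 0.0475 to 0.172 and passed only when all libraries were scaled to a common total. With wild-type libraries 1 and 2 left out the log2 fold change was 0.38 (limma adjusted p = 0.000715), and with libraries 3 and 4 left out it was 0.16 (adjusted p = 0.0453), so Jak1 passed in both.

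The receptor chains of B16-F10 overlapped between groups. Ifnar1 stood at 27.0, 28.7, 24.4 and 25.002 FPKM in wild-type and 27.4, 26.3, 25.7 and 26.6 FPKM in knockout libraries, a log2 difference of 0.02 with a 95% interval of -0.11 to 0.14. Ifnar2 stood at 17.3, 16.7, 16.2 and 16.7 against 17.9, 17.8, 15.96 and 19.0 FPKM, with an interval of -0.06 to 0.20. With wild-type libraries 1 and 2 left out the log2 differences were 0.10 for Ifnar1 and 0.10 for Ifnar2, and with libraries 3 and 4 left out -0.07 and 0.05, none of them called.

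The signal transducers overlapped as well. Stat2 stood at 1.64, 1.67, 2.10 and 2.12 FPKM in wild-type and 2.19, 2.55, 2.29 and 1.73 FPKM in knockout libraries, where library 4 was the low one (log2 difference 0.14, 95% interval -0.08 to 0.37). Stat3 stood at 14.5, 14.5, 12.04 and 12.4 against 12.1, 11.5, 12.7 and 13.9 FPKM (log2 difference -0.08, 95% interval -0.26 to 0.09). The ratio of Stat2 to Stat3 was 0.143 ± 0.0338 in wild-type and 0.177 ± 0.0400 in knockout cells (SD, n = 4 each; two-sided exact permutation p = 0.171, adjusted p = 0.257). With wild-type libraries 1 and 2 left out the log2 differences were 0.03 for Stat2 and 0.03 for Stat3, and with libraries 3 and 4 left out 0.26 and -0.20, none called, so Stat3 changed sign with the pair.

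Among the regulatory factors of B16-F10, Irf1 was at 4.72, 5.04, 3.86 and 4.65 FPKM in wild-type and 5.05, 4.71, 5.19 and 5.78 FPKM in knockout libraries (log2 difference 0.15, 95% interval -0.03 to 0.34). Irf3 was at 31.5, 30.6, 21.9 and 25.1 against 26.1, 25.5, 28.9 and 27.9 FPKM, with the widest interval of the members, -0.24 to 0.24. The wild-type spread of Irf3 spanned the whole knockout range, and its log2 difference was 0.20 with wild-type libraries 1 and 2 left out and -0.19 with libraries 3 and 4 left out (limma adjusted p = 0.0643 and 0.0650). Irf9 was at 1.69, 1.94, 1.38 and 1.61 against 1.98, 1.97, 1.66 and 1.37 FPKM (log2 difference 0.05, 95% interval -0.18 to 0.27). With libraries 1 and 2 left out Irf1 differed by 0.24 and Irf9 by 0.13, and with libraries 3 and 4 left out by 0.07 and -0.04, none called. Irf7, under the minimum level, was at 0.291, 0.299, 0.135 and 0.130 FPKM in wild-type and 0.150, 0.156, 0.225 and 0.328 FPKM in knockout libraries. High and low libraries occurred in both groups, and the means were 0.214 ± 0.0941 and 0.215 ± 0.0826 FPKM (SD, n = 4 each).

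**Figure D3:**
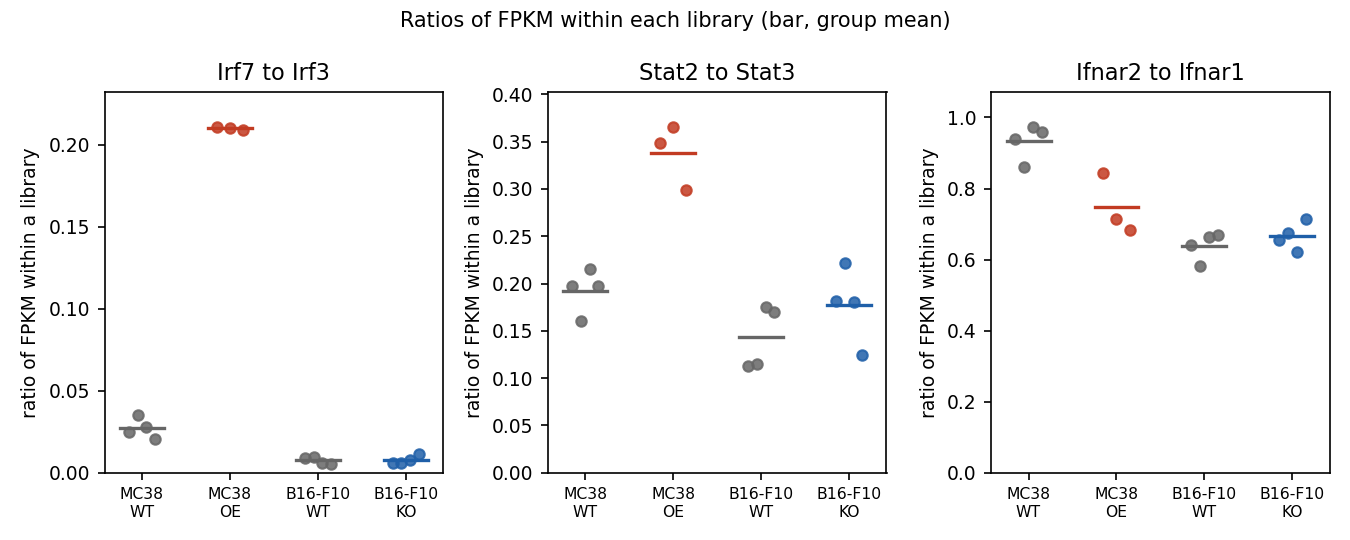
Within-library ratios of Irf7 to Irf3, Stat2 to Stat3 and Ifnar2 to Ifnar1 (vertical axes, ratio of FPKM) in the 4 groups, 1 point a library with the group mean. The MC38 groups do not overlap in any of the 3 ratios, with Irf7 to Irf3 at 0.0272 and 0.210 on average, and the B16-F10 groups overlap in each.

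The order of the levels differed by line and changed in MC38. In wild-type MC38 it ran Irf1, Jak1, Irf3, Ifnar1, Ifnar2, Stat3, Irf9, Stat2, Irf7 from high to low, and only Irf3 and Ifnar1 overlapped as neighbours. In overexpressing cells Stat3 stood above Ifnar1, and Irf3 overlapped Ifnar2 instead. In wild-type B16-F10 the highest 3 genes, Jak1, Irf3 and Ifnar1, overlapped, followed by Ifnar2, Stat3, Irf1, then Stat2 and Irf9, which overlapped, and Irf7. In knockout cells the order was kept, with Jak1 now above the ranges of Irf3 and Ifnar1. Irf1 was first in MC38 and sixth in B16-F10, in tables that were normalized separately.

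Listed target genes of ISGF3 rose in MC38 cells overexpressing Ssbp4. Of 12 listed targets 11 were tested and all 11 were called higher (100%, against 23.9% of all tested genes), with a median log2 fold change of 1.73. The antiviral gene Ifi44 went from 0.711 to 10.2 FPKM (log2 fold change 2.71, limma adjusted p = 7.63e-09), and the receptor transporter gene Rtp4 from 1.61 to 10.6 FPKM (2.16, adjusted p = 3.56e-08). Ifit3, which codes for an antiviral effector, went from 0.236 to 3.62 FPKM (1.90, adjusted p = 1.35e-07), but reads of its near-identical copy Ifit3b could be split with it. The 3 with the lowest log2 fold change were Ifit2 (5.27 to 7.30 FPKM, 0.40, adjusted p = 0.000683), Parp14 (2.57 to 4.19 FPKM, 0.54, adjusted p = 0.000148) and the RNA helicase gene Dhx58 (0.928 to 3.58 FPKM, 1.25, adjusted p = 1.51e-06). For 6 of the 11, Ifi44, Ifit3 and Dhx58 among them, the wild-type mean was under 1 FPKM, so they were tested only through the overexpressing libraries. In B16-F10 only 3 of the 12 reached the minimum and none was called; Ifit2 was at 17.3 and 18.4 FPKM (log2 difference 0.09, adjusted p = 0.453) and Rsad2 at 2.92 and 2.67 FPKM (-0.10, adjusted p = 0.580).

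Of the genes driven by IRF1 and interferon gamma, 7 of 9 tested in MC38 were called higher (77.8%, against 23.9% of all tested genes) and 2 lower (22.2%, near the 23.6% of all tested genes), with a median of 0.30. The guanylate-binding protein genes Gbp3 (2.23 to 6.20 FPKM, 1.16, limma adjusted p = 2.97e-06) and Gbp2 (27.8 to 52.8 FPKM, 0.90, adjusted p = 1.51e-07) rose. So did the chemokine gene Cxcl10, from 23.4 to 41.0 FPKM (0.78, adjusted p = 1.80e-07). The antigen peptide transporter gene Tap1 rose least of those called higher, from 14.1 to 16.7 FPKM (0.23, adjusted p = 0.0112). Nlrc5, the activator of MHC class I genes, fell from 3.69 to 2.34 FPKM (-0.49, adjusted p = 0.000983), and Cd274, which codes for PD-L1, from 4.36 to 3.73 FPKM (-0.18, adjusted p = 0.0326). The call of Cd274 was lost without wild-type library 1, 2 or 4 or overexpressing library 2 or 3, with adjusted p up to 0.129.

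Cxcl10 was the one gene called among 4 tested of this list in B16-F10, where it fell. It stood at 7.25, 7.32, 6.20 and 7.10 FPKM in wild-type and 3.01, 3.08, 2.32 and 4.94 FPKM in knockout libraries, with no overlap. The log2 fold change was -0.91 (SE 0.15, limma adjusted p = 0.0280). The call held without knockout library 4 and with either pair of wild-type libraries left out, and was lost without any one of the other 7 libraries, with adjusted p up to 0.114.

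None of the 12 interferon ligand genes reached the minimum in either line. In MC38 8 of them were listed at 0 in every library and the highest value of any was 0.571 FPKM, and in B16-F10 11 were at 0 and the highest value was 0.101 FPKM. Of the other receptor chains, Ifngr2 of the interferon gamma receptor was called higher in MC38 (log2 fold change 0.16, limma adjusted p = 0.0372). It made up 33.3% of those tested, beside 23.9% of all tested genes. That call was lost without wild-type library 1, 3 or 4 or overexpressing library 1 or 2 (adjusted p up to 0.157). In B16-F10 0 of 3 were called. There Il10rb was at 78.0 and 81.5 FPKM and Ifngr2 differed by 0.17 (limma adjusted p = 0.112). Both were called higher with wild-type libraries 1 and 2 left out (0.25 and 0.22, adjusted p = 0.00514 and 0.0268), and Il10rb was at -0.11 with libraries 3 and 4 left out.

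**Figure D4:**
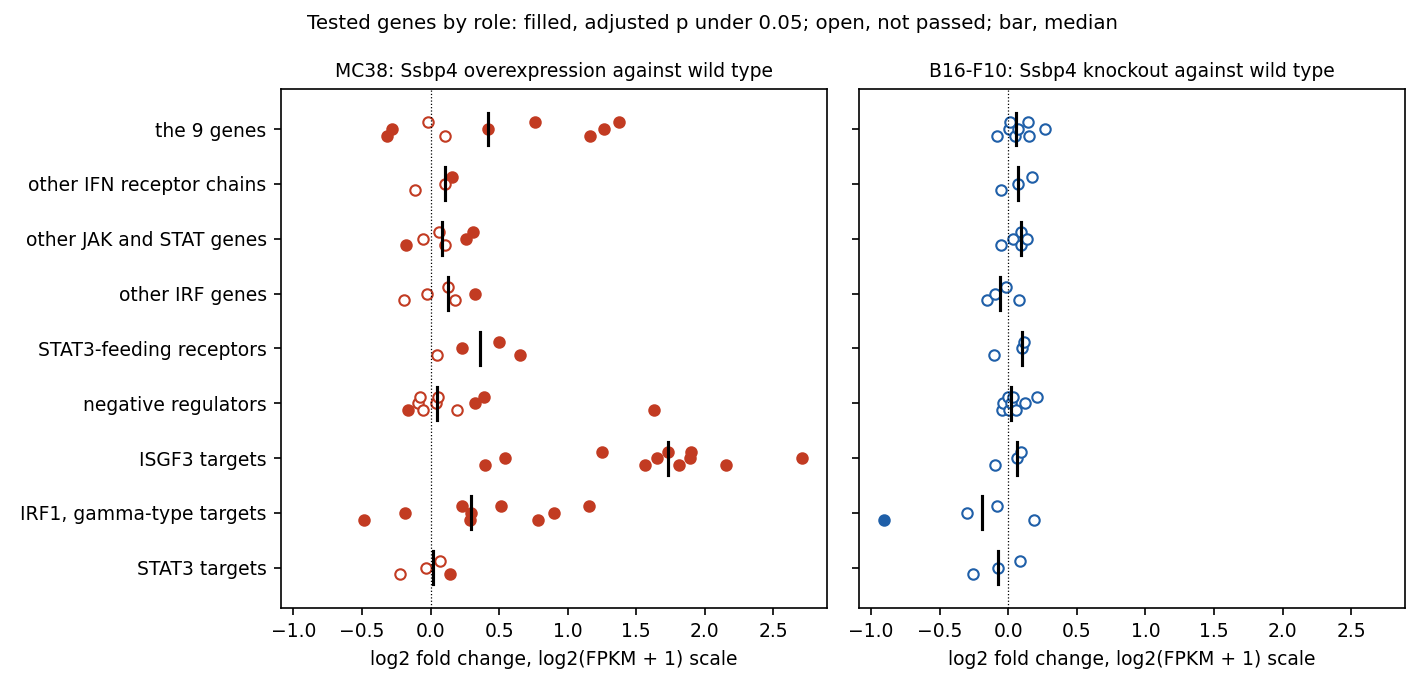
Log2 fold change on the log2(FPKM + 1) scale of every tested gene of the pathway lists, 1 point a gene, with the lists on the vertical axis and the lines in separate panels. In MC38 the 11 tested ISGF3 targets all lie above 0 with a median of 1.73. For 6 of these the wild-type mean was under 1 FPKM, so they were tested only through the overexpressing libraries. In B16-F10 the medians of the lists lie between -0.191 and 0.0975.

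Of the other JAK and STAT genes analysed, 2 were called higher and 1 lower of 6 tested in MC38 (median 0.08), shares of 33.3% and 16.7% beside 23.9% and 23.6% of all tested genes. The receptor-bound kinase gene Tyk2 rose by 0.31 (adjusted p = 0.0386), a call lost without wild-type library 1, 3 or 4 or overexpressing library 2 or 3 (adjusted p up to 0.144). Stat5a rose by 0.26 (adjusted p = 0.0101), which was lost without overexpressing library 1 (adjusted p = 0.0508). Jak2, the kinase of the interferon gamma receptor, fell by 0.18 (adjusted p = 0.0368), which was lost without wild-type library 1, 3 or 4 or overexpressing library 1 or 3 (adjusted p up to 0.127). In B16-F10 0 of 5 were called, with Stat6 at 27.3 and 27.9 FPKM and Stat5b at 10.4 and 11.5 FPKM. Of the other IRF genes, 1 of 5 tested in MC38 was called higher and 0 lower, beside 23.9% and 23.6% of all tested genes. It was Irf2bpl (5.69 to 7.33 FPKM, adjusted p = 0.0244). The call of Irf2bpl was lost without overexpressing library 1 or 2 (adjusted p up to 0.0852). In B16-F10 0 of 4 other IRF genes were called. There Irf2bp1 was at 14.7 and 15.6 FPKM and Irf2bpl at 14.8 and 14.6 FPKM.

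Receptor chains that feed STAT3 were called higher in 3 of 4 tested in MC38 (75.0%, against 23.9% of all tested genes), with a median of 0.36. Il6ra, the interleukin 6 binding chain, rose from 1.73 to 3.28 FPKM (0.65, limma adjusted p = 8.70e-05), and Il11ra1, whose reads could be split with its near-identical copy Il11ra2, from 3.38 to 5.16 FPKM (0.50, adjusted p = 0.000478). Osmr rose by 0.23 (adjusted p = 0.0303), a call lost without any one overexpressing library or wild-type library 2 or 4 (adjusted p up to 0.0951). Of the STAT3 targets 1 of 4 tested was called higher, a share near the 23.9% of all tested genes. It was the survival gene Mcl1 (46.0 to 50.9 FPKM, adjusted p = 0.0318). The call of Mcl1 was lost without overexpressing library 1 or 2 or wild-type library 2 (adjusted p up to 0.127). In B16-F10 neither list had a call among 3 tested each, with Il11ra1 at 17.3 and 18.5, Il6st at 10.6 and 9.82, Mcl1 at 50.1 and 47.5 and Junb at 5.20 and 3.94 FPKM. Junb differed by 0.24 with wild-type libraries 1 and 2 left out and by -0.75 with libraries 3 and 4 left out, where it was called (adjusted p = 0.0118).

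Negative regulators were called higher in 3 and lower in 1 of 10 tested in MC38 (median 0.05). The 30.0% called higher was near the 23.9% of all tested genes. The share called lower was 10.0%, beside 23.6% of all tested genes. Usp18, which binds IFNAR2 and blocks its signal, rose 12.3-fold from 0.228 ± 0.117 FPKM (SD, n = 4) to 2.80 ± 0.481 FPKM (SD, n = 3), a log2 fold change of 1.63 (SE 0.11, limma adjusted p = 1.48e-06), and like Irf7 was tested only through the overexpressing libraries. Socs3, the feedback inhibitor of STAT3 signalling, rose from 2.99 to 3.98 FPKM (0.32, adjusted p = 0.00288) and Pias3 from 6.81 to 9.23 FPKM (0.39, adjusted p = 0.000354). The phosphatase gene Ptpn11 fell from 62.3 to 55.5 FPKM (-0.16, adjusted p = 0.00226). In B16-F10 0 of 9 were called, and Ptpn11 stood at 41.4 and 41.6 FPKM and Ptpn2 at 19.0 and 19.5 FPKM.

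Among the 5 genes whose profile over the 7 MC38 libraries was most like that of Irf7 were Gfra2, Lgals9, Insig1 and Col6a1, by root mean square difference of centred log2(FPKM + 1), among genes with a mean of at least 5 FPKM. The differences ran from 0.0518 for Gfra2 to 0.0673 for Col6a1, against 0.682 for the deviation of the Irf7 profile from its own mean. On this scale the 6.25-fold rise of Irf7 was a change of 1.37. Gfra2 (8.86 to 24.2 FPKM, 1.35) and Col6a1 (25.3 to 66.1 FPKM, 1.35) came near it. The list thus picks genes with a similar change on that scale, and shared regulation was not tested. In B16-F10 the Irf7 profile was nearly flat on this scale (0.0906), which compresses a gene at 0.130 to 0.328 FPKM. The 5 nearest genes over 8 libraries, with Tspan7, Galk2, Rnf169 and Copz1 among them, differed by 0.0250 to 0.0350. Their likeness is to that compressed profile only.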

How the data were processed

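Polyadenylated RNA was sequenced from MC38 and B16-F10 cells, per the labels' protocols. The authors deposited 1 table of FPKM values per line, and reads were processed on GRCm39 with DESeq2 named among the tools, per the submitters' processing notes. For the aligner and the counting strand, no statement was found in the labels or headers. Of the columns, 0 could not be matched to a sample. Low values came close to whole reads in 83.8% to 86.7% of cases (within 0.1 of a whole number), too few for a count test. By counts estimated from FPKM, no libraries of a group agreed within sampling noise (lowest chi-square 6.72 per degree of freedom). Each was treated as 1 sample. That does not show separate cultures, since the spread may be technical, and the B16-F10 wild-type libraries fell into pairs.

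From these values, log2(FPKM + 1) was fitted with limma 3.58.1 with a mean-variance trend in R 4.3.3, for each line alone, over genes with a mean of at least 1 FPKM. Ratios were tested by exact permutation of the libraries, using the absolute difference of means. Figures used matplotlib 3.10.9. Members and gene lists were chosen with earlier results of these data known. Besides Ssbp4 and the members, the text names from each list the 3 called genes with the highest and the 3 with the lowest log2 fold change (all, where fewer were called), or the 2 most abundant where none was called; a few genes the rule or the lists would include are not reported here. Promoter windows came from RefSeq on GRCm38.p6, and exon overlaps from GENCODE on GRCm38, not the authors' build. The script was tested on simulated data. Alternatives were the pseudocount, the filter, scaling, a replicate block and leaving out each library and, after seeing the data, either pair of B16-F10 wild-type libraries.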

Additional observations from a re-analysis of the deposited data

Results flagged for a closer look

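In 85 groups of 4 libraries, 11 had a library far from the others by Dixon's test, and chance gives about 1 in 20. In wild-type MC38 these were Ssbp4 at 13.2 FPKM and Tap1 at 12.5 FPKM in library 1, both below the others, and Ifnar2 at 13.7 FPKM and Mcl1 at 42.7 FPKM in library 2. Without wild-type library 2 the fall of Ifnar2 in MC38 was still called. In wild-type B16-F10 they were Irf2bp1 at 13.1 and Il6st at 11.4 FPKM in library 3, Il11ra1 at 15.8 FPKM in library 1 and Ptpn11 at 39.5 FPKM in library 4. In knockout B16-F10 they were Irf2bpl at 16.9 FPKM in library 4, Il11ra1 at 17.3 FPKM in library 3 and Ifit2 at 17.2 FPKM in library 1. Ifnar2 was the only member among them.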

How the results depend on the processing

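Every member called in MC38 kept its direction and its call in each alternative that tested it, and the members called lower stayed at 2. A minimum of 5 FPKM left 3 members called higher, since Irf7 and Stat2 were then not tested. Leaving out 1 library gave 5 to 6 members called higher in MC38. Over the named genes, 460 MC38 values stayed on their side of the threshold, 46 lost a call, 1 gained one and 1 reversed; in B16-F10 these were 379, 10, 6 and 32. With libraries scaled to a common total, Ifnar1 in MC38 reversed to 0.0074, Irf2bpl in B16-F10 to 0.0013, and 1 B16-F10 member, Jak1, was called. With median-of-ratios scaling, B16-F10 Ifnar1 was -0.0041, Irf3 -0.0151 and Ptpn11 -0.0177. The share of calls that were higher in B16-F10 was 59.7%, against 73.1% with a common total and 42.9% with median of ratios. Leaving out 1 B16-F10 library, Ifnar1 ran from -0.0177 to 0.057, Irf3 from -0.0921 to 0.0768, Irf9 from -0.0035 to 0.1169, Irf2bpl from -0.0822 to 0.0575, Ptpn11 from -0.0339 to 0.0318, Ptpn2 from -0.0119 to 0.0718 and the log2 ratio of Irf7 to Irf3 from -0.173 to 0.1788. B16-F10 calls over all genes, 145 higher and 98 lower, became 71 higher at a minimum of 0.1 FPKM, 65 lower at a minimum of 5, 33 and 40 with no filter, 226 higher with a common total, 84 higher with median of ratios, and 8 to 267 higher and 15 to 147 lower without 1 library; leaving out any of the 8 libraries moved the total by over 1.5 times, to 414 without knockout library 4 and to between 23 and 119 without each of the others. The cause was not tested. Correlations between same-numbered libraries ran from -0.288 to -0.0664 in MC38 and from -0.298 to 0.165 in B16-F10. With so few libraries, centred within their group, these values cannot decide whether the numbers pair the samples. No pairing is labelled. The replicate block gave 2033 higher and 1873 lower genes in MC38 and 4 and 8 in B16-F10, where Ssbp4 and Cxcl10 were then not called (adjusted p = 0.0890 and 0.0765). In MC38 the block ended the calls of Ifngr2 (adjusted p = 0.115), Jak2 (0.132), Osmr (0.126), Cd274 (0.136) and Mcl1 (0.0759). With wild-type libraries 1 and 2 left out, B16-F10 had 1698 genes higher and 1107 lower and 1 member called, Jak1; Stat3 reversed to 0.0299, Irf2bpl to 0.1595, Ptpn2 to -0.066, Ifit2 to -0.0011, Junb to 0.244 and the log2 ratio of Ifnar2 to Ifnar1 to -0.0006, and Il10rb and Ifngr2 were called. With libraries 3 and 4 left out, 784 genes were higher and 565 lower and 1 member, Jak1, was called; Ifnar1 reversed to -0.067, Irf3 to -0.1921, Irf9 to -0.039, Il10rb to -0.1067, Stat6 to -0.013, Ptpn11 to -0.0194 and the log2 ratio of Irf7 to Irf3 to -0.3351, and Junb was called lower. The calls of Cd274, Ifngr2, Irf2bpl, Jak2, Mcl1, Osmr and Tyk2 in MC38 and of Cxcl10 in B16-F10 (adjusted p = 0.0759) were also lost with no filter. Irf7 in B16-F10 was under the minimum of 1 FPKM.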
